A study of Homo sapiens with 4 samples.

Results

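The AMPK subunits and upstream kinases were the 10 genes PRKAA1, PRKAA2, PRKAB1, PRKAB2, PRKAG1, PRKAG2, PRKAG3, STK11, CAMKK1 and CAMKK2, beside 22148 annotated background genes. The tables give background numbers without names, so the presence of the members that were not listed in this background could not be read from them. The members were chosen by name, with earlier results of these data known, as the 7 genes for subunits of AMPK and 3 genes for kinases that activate it. A gene was called listed in a cell line when its Ensembl identifier stood in any row of the GO table for the mRNAs differentially expressed after against before treatment, so a differentially expressed gene with no GO row is not in the lists. In a KEGG row, listed means that the identifier stands in that row. Both lines studied, HepG2 and Huh7, are established lines from human liver tumours. Group A was untreated HepG2 cells and group B was HepG2 cells after sonodynamic therapy (SDT), in which ultrasound activates a sensitizer. Groups C and D were Huh7 cells without and with the same treatment. The treated cells received nanobubbles, HMME-LND@C3F8-NBs, that carried the sensitizer HMME and lonidamine (LND), an inhibitor of energy metabolism, and were exposed to low-frequency ultrasound. The sensitizer, LND, the bubbles and the ultrasound were given together, so their parts cannot be told apart. Each group had 1 library, so no value has a replicate check. The tables hold gene numbers and identifiers, with no expression values and no direction, and neither the levels of the members nor the markers of the cell lines could be looked at. The depth of the libraries is unknown from the tables.

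AMPK is a protein kinase that senses the energy state of the cell. It is built from a catalytic alpha, a scaffolding beta and a nucleotide-binding gamma subunit. AMP or ADP bound to gamma favours phosphorylation of the activation loop of alpha by LKB1 (encoded by STK11). The calcium-dependent kinases CAMKK1 and CAMKK2 can also phosphorylate this loop. In hepatocytes, active AMPK restrains the synthesis of fatty acids and cholesterol and the mTORC1 branch of growth control, and favours fatty acid oxidation and autophagy.

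In HepG2 cells, 2 of the 10 genes were listed, PRKAG2 and CAMKK1, where 21.6% of all background genes were listed. In Huh7 cells, 1 of the 10 was listed, PRKAG3, where 19.7% of the background was listed. No member was listed in both cell lines, where 10.3% of the background was. Read against these shares, the number of members in each list was near or under that of any 10 background genes, and the counts give no result about the set as a whole. The other 7 members were listed in neither cell line. A gene that is not listed may have been unchanged, too low to be called, or without a call for other reasons, and the tables do not separate these. Since the list says nothing of size or direction, a gene listed in a single cell line is not shown to differ between them, and the difference between the cell lines was not tested.

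**Figure D1:**
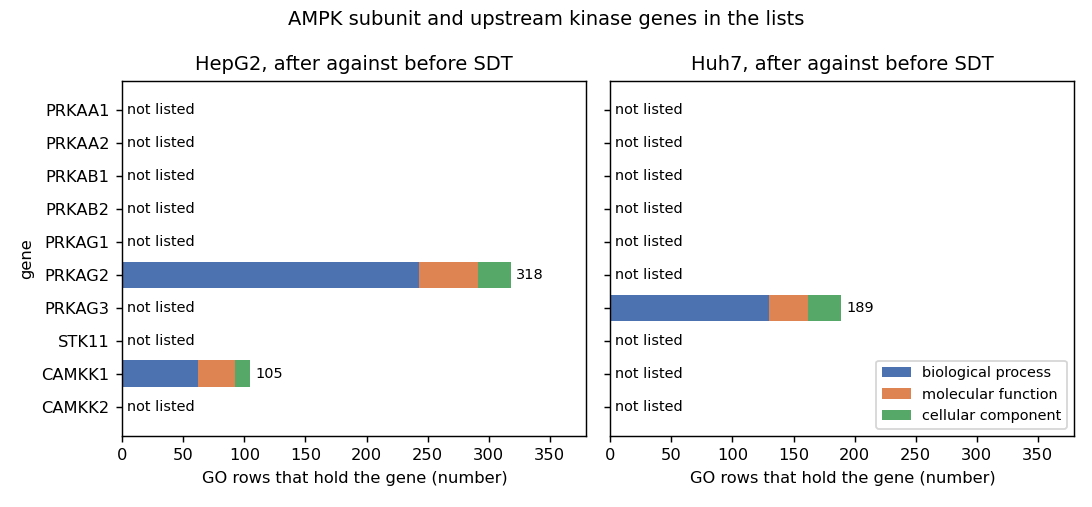
Number of GO rows that hold each of the 10 genes in HepG2 (left) and Huh7 (right) cells, coloured by GO branch, from the lists after against before SDT. PRKAG2 (318 rows) and CAMKK1 (105 rows) appear in HepG2, PRKAG3 (189 rows) appears in Huh7, and the other genes have no bar because they were not listed.

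The catalytic subunits were listed in neither cell line. PRKAA1 (ENSG00000132356) and PRKAA2 (ENSG00000162409) encode the alpha1 and alpha2 kinases, the subunits with the activation loop. The beta subunits PRKAB1 (ENSG00000111725) and PRKAB2 (ENSG00000131791), which hold the complex together and bind glycogen, were also listed in neither. At background shares of 21.6% and 19.7%, 0 of 4 alpha and beta genes is near the background.

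Of the 3 gamma subunit genes, 1 was listed in each cell line, and it was a different gene. PRKAG2 (ENSG00000106617), which encodes the gamma2 subunit and is known for mutations that cause a glycogen storage cardiomyopathy, was listed in HepG2 and not in Huh7. PRKAG3 (ENSG00000115592), which encodes gamma3, a subunit known mainly from skeletal muscle, was listed in Huh7 and not in HepG2. PRKAG1 (ENSG00000181929), which encodes the widely expressed gamma1, was listed in neither. With so few genes, 1 of 3 in each cell line is near the background shares of 21.6% and 19.7% and sets the gamma genes apart from no other subunit.

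Among the upstream kinases, CAMKK1 (ENSG00000004660), which encodes a calcium and calmodulin-dependent kinase that phosphorylates AMPK and CaM kinases, was listed in HepG2 only. CAMKK2 (ENSG00000110931), its close relative and the better known calcium-dependent activator of AMPK, was not listed in either cell line. STK11 (ENSG00000118046), which encodes the tumour suppressor kinase LKB1, was not listed in either.

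PRKAG2 was held by 318 GO rows in HepG2, of which 243 were biological processes, 48 molecular functions and 27 cellular components. PRKAG3 was held by 189 rows in Huh7 (130, 32 and 27), and CAMKK1 by 105 rows in HepG2 (62, 30 and 13). The number of rows reflects how richly a gene is annotated, not how strongly it responded. The gamma genes shared 167 terms, which were 52.5% of the terms of PRKAG2 and 88.4% of those of PRKAG3. CAMKK1 shared 103 terms with PRKAG2 (98.1% of its own) and 86 with PRKAG3 (81.9% of its own). The terms of CAMKK1 not shared with PRKAG2 were calmodulin-dependent protein kinase activity and calmodulin binding. Those shared were broad, each with 490 or more background genes, so this overlap lies in general terms.

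Among the other listed genes of HepG2 cells, those with the most similar GO terms to PRKAG2 were TRIB3, DGKQ and PKLR, with Jaccard indices (shared terms over all terms of the pair) of 0.41, 0.39 and 0.36. TRIB3 encodes a pseudokinase that binds AKT, DGKQ a diacylglycerol kinase and PKLR the pyruvate kinase of liver. For CAMKK1 they were SBK2, NEK10 and HUNK, all protein kinases, with indices of 0.77, 0.68 and 0.62. For PRKAG3 in Huh7 they were STK40, MKNK1 and PHKG1, with indices of 0.43, 0.43 and 0.41. PHKG1 is the catalytic subunit of phosphorylase kinase, which acts in glycogen breakdown. Of these 9 genes, TRIB3, SBK2, STK40 and PHKG1 were listed in both cell lines, and the other 5 in 1 cell line, like the members.

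The GO term AMP-activated protein kinase activity has 7 background genes and held 1 listed gene in each cell line (14.3%), PRKAG2 in HepG2 and PRKAG3 in Huh7. AMP-activated protein kinase complex has 15 background genes and held 4 listed genes in HepG2 (26.7%) and 3 in Huh7. In HepG2 cells these were PRKAG2, PRKAR1A, NIM1K and SESN2, and in Huh7 PRKAG3, NIM1K and SESN2. SESN2 encodes sestrin 2, a stress protein that acts on AMPK and mTORC1, NIM1K a kinase related to AMPK, and PRKAR1A a regulatory subunit of protein kinase A. NIM1K and SESN2 were listed in both cell lines. No AMPK subunit among the members was listed in both, so this term could share none between the cell lines. Beside background shares of 21.6% in HepG2, 19.7% in Huh7 and 10.3% in both, these counts are near the background for so few genes.

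Some of the other small terms around PRKAG2 were chosen after their values had been seen, for their link to nucleotide binding and metabolism, and further ones concern the control of kinases. Among the latter, positive regulation of peptidyl-threonine phosphorylation held 11 of 30 background genes in HepG2 and 2 in Huh7, and protein serine/threonine kinase inhibitor activity held 12 of 36 and 10. AMP binding held 2 of 13 background genes in HepG2 and 1 in Huh7. ADP binding held 8 of 45 in HepG2 and 12 in Huh7. Regulation of fatty acid oxidation held 10 of 28 in HepG2 (35.7%) and 6 in Huh7. Regulation of glycolysis held 15 of 41 (36.6%) and 8, and regulation of fatty acid biosynthetic process held 14 of 48 (29.2%) and 7. Beside background shares of 21.6% in HepG2 and 19.7% in Huh7, these terms lay on both sides, as did others of PRKAG2 that concern metabolism, such as ATP biosynthetic process with 9 of 53 in HepG2 (17.0%) and sterol biosynthetic process with 15 of 81, and 19 in Huh7. Around PRKAG3 in Huh7, response to muscle activity held 8 of 25 background genes, and the same number in HepG2. Glycogen metabolic process held 16 of 75 in Huh7 and 19 in HepG2, and glycolysis held 14 of 76 and 22. Around CAMKK1, calmodulin-dependent protein kinase activity held 8 of 29 background genes in HepG2 and 9 in Huh7, and calmodulin binding held 67 of 198 and 66. Over all its rows, 104 of the 105 terms of CAMKK1 held more listed genes in HepG2, whose list is the longer. So did 280 of the 318 terms of PRKAG2 and 172 of the 189 of PRKAG3. Many of these terms are nested. Each term of PRKAG2 and CAMKK1 holds that gene in HepG2 only, and each of PRKAG3 in Huh7 only, and the counts were not tested.

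Promoter sequences from RefSeq (GRCh38.p14) were available for all 10 genes, as 15 windows of the 250 bases before an annotated start. CpG dinucleotides were counted because CpG-rich promoters belong to most widely expressed genes, and the median over all 35116 windows was 11. The 7 members that were not listed had 25 to 46 CpG, all above the median. Each of them has 1 window, and those of PRKAB1 and PRKAG1 lie wholly in annotated exons. PRKAG3 had 6, more than in 38.1% of all windows, and was the only member with no window above the median. PRKAG2 has 5 annotated starts, of which 2 were CpG-rich (30 and 41) and 3 were CpG-poor (2, 6 and 4). CAMKK1 has 2 starts, with 41 and 2 CpG. The motif TATAAA was not found on either strand in any of the 15 windows, whereas 10.7% of all windows held it, which says only that these letters are absent there. A gene-level identifier does not tell which start was used, so no start can be assigned to either listing. The first and the second start of PRKAG2 and both starts of CAMKK1 are shown, since each of these listed genes has a CpG-rich and a CpG-poor start. The sequences are in lower case, 5′ to 3′ on the minus strand, with CpG dinucleotides in capitals, and bases that are part of a GENCODE v29 exon are left out. The window of PRKAG3 lies in an exon of PRKAG3 in GENCODE v29 and is not shown. The PRKAG2 stretches are chr7:151877141-151877365 (225 bases upstream of the PRKAG2 exons, within the antisense gene PRKAG2-AS1) and chr7:151814860-151815109 (intronic in PRKAG2). The CAMKK1 stretches are chr17:3893054-3893303 and chr17:3890744-3890993, both intronic in CAMKK1.
PRKAG2 first start: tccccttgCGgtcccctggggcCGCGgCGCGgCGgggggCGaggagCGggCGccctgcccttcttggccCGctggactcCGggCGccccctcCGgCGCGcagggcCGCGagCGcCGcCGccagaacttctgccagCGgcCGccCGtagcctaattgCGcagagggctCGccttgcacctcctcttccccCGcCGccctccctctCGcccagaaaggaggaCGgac
PRKAG2 second start: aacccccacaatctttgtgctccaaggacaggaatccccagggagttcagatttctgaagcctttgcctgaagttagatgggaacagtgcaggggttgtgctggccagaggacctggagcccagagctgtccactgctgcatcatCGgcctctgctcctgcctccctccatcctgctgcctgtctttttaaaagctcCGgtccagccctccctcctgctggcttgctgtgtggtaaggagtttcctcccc
CAMKK1 first start: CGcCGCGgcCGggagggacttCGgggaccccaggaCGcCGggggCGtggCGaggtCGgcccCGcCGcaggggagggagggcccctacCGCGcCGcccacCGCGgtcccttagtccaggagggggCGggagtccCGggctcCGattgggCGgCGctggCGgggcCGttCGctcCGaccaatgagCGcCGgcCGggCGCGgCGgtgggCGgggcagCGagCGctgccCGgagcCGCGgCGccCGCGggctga
CAMKK1 second start: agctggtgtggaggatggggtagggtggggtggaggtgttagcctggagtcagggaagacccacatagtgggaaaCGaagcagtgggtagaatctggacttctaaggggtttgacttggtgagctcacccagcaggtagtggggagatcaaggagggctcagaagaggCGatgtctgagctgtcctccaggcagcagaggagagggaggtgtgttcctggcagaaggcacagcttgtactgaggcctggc

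**Figure D2:**
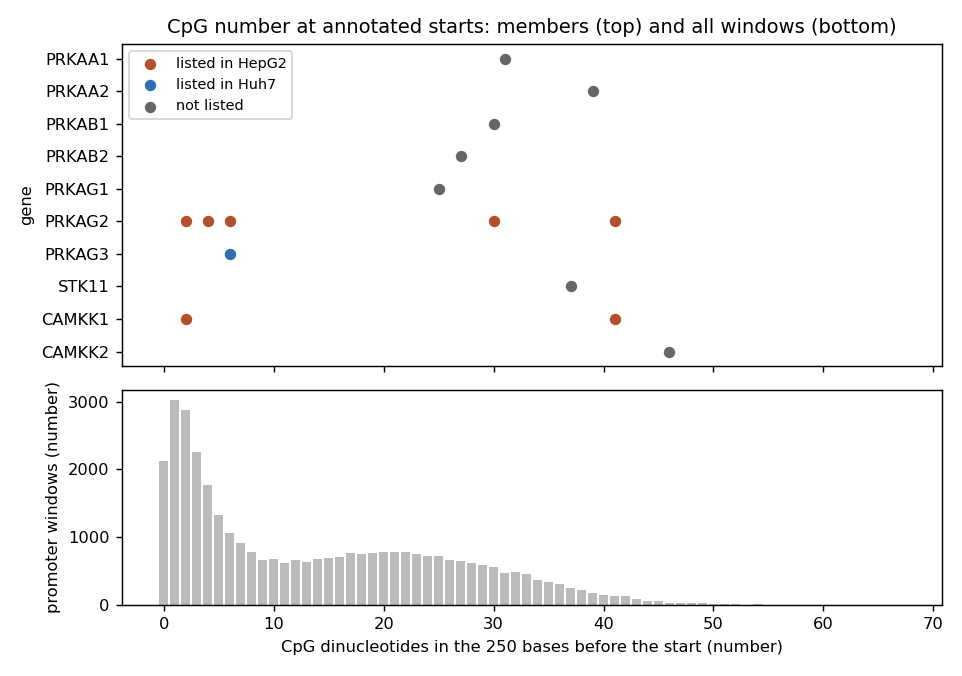
Number of CpG dinucleotides in the 250 bases before each annotated start of the 10 genes (top, 1 point per start, coloured by the cell line in which the gene was listed) and in all 35116 promoter windows (bottom, bars). The genes that were not listed lie at 25 or more, PRKAG3 lies at 6, and PRKAG2 and CAMKK1 have starts on both sides of the median of 11. The CpG-rich starts of PRKAG2 and CAMKK1 lie in the range of the genes that were not listed.

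In the GRCh38 annotation of GENCODE v29, PRKAG2 spans 321 kb of chromosome 7 (151556111 to 151877125), PRKAG3 9.70 kb of chromosome 2 (218822383 to 218832086) and CAMKK1 34.6 kb of chromosome 17 (3860315 to 3894891), all on the minus strand. The build used by the study for its files is not given in the sources used here, and the genes were matched by identifier. Sharing of reads between members could be checked in this annotation only. Of the 75-base stretches of their transcripts, 0 were shared between any members, and CAMKK1 was the only member to share any with another gene, 6 of 7562. At 50 bases, 0 were again shared between members, and 6 members shared up to 1.17% of their stretches with other genes.

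The KEGG table of HepG2 cells held PRKAG2 in 8 rows and CAMKK1 in 4, and that of Huh7 cells held PRKAG3 in 8. The 8 rows of PRKAG3 were the same as those of PRKAG2. Where 26.3% of all gene and pathway entries were listed in HepG2 and 25.8% in Huh7, the rows of the gamma genes lay on both sides. Hypertrophic cardiomyopathy stood highest, with 36 of 83 background genes listed in HepG2 (43.4%) and 33 in Huh7 (39.8%). FoxO signaling pathway held 44 and 32 of 134, Circadian rhythm 9 and 6 of 31, and Insulin signaling pathway 32 and 25 of 141. Non-alcoholic fatty liver disease held 39 of 151 in HepG2 (25.8%) and 20 in Huh7 (13.2%), and Adipocytokine signaling pathway held 13 and 9 of 70. Oxytocin signaling pathway held 45 and 49 of 159, the only row of these 8 with the higher number in Huh7. CAMKK1 stood in the AMPK, Adipocytokine and Oxytocin rows and in Alcoholism (75 and 74 of 180).

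The AMPK signaling pathway row (hsa04152) has 124 background genes. It held 39 listed genes in HepG2, or 31.5% (95% Wilson interval 23.9% to 40.1%), and 27 in Huh7, or 21.8% (15.4% to 29.8%). Of the 39, 1 stood in KEGG rows but in no GO row. The intervals treat genes as independent draws and cover counting error only, and they overlap. Of 274 pathways with at least 10 background genes, with a pathway absent from a table counted as 0, 62 had a higher share than the AMPK row in HepG2 and 181 in Huh7. The median share over these pathways was 25.9% in HepG2 and 26.1% in Huh7, so the row was above the middle in HepG2 and below it in Huh7. The members made up 2 of the 39 and 1 of the 27 genes. With all 10 members taken as part of the row and left out, the shares were 32.5% and 22.8%.

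**Figure D3:**
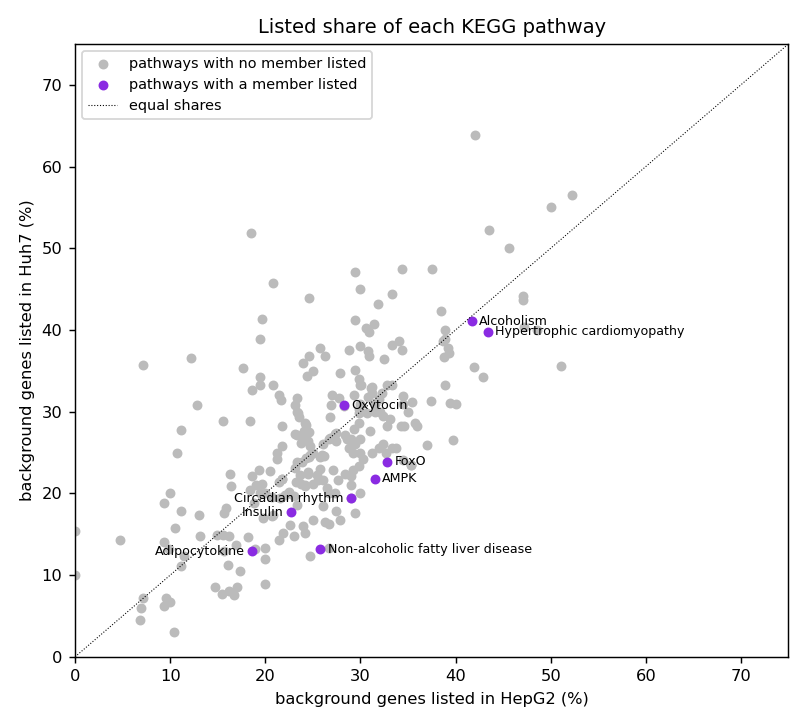
Share of the background genes of each KEGG pathway that was listed in HepG2 (horizontal axis, %) and in Huh7 (vertical axis, %), 1 point per pathway with at least 10 background genes, and purple points for the pathways that hold a listed member. The AMPK row lies at 31.5% and 21.8%, on the HepG2 side of the dotted line of equal shares, as do all rows with a member apart from the Oxytocin row.

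The HepG2 and Huh7 lists had 19 genes of the AMPK row in common, 48.7% of the HepG2 genes and 70.4% of the Huh7 genes. Over all background genes, by GO rows, 4783 were listed in HepG2, 4369 in Huh7 and 2281 in both. Beside these lists as a whole, the shared part of the row was close for the HepG2 genes and higher for the 27 Huh7 genes. The difference was not tested. A further 20 genes were listed in HepG2 only and 8 in Huh7 only, and 77 were listed in neither. None of the 19 could be a member, since no member was listed in both cell lines. Of the 47 genes listed in either cell line, 45 were members or stood in the lists of pathway genes by role described next. The remaining 2, SCD5 and a gene with no symbol (ENSG00000267318), were in no list.

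**Figure D4:**
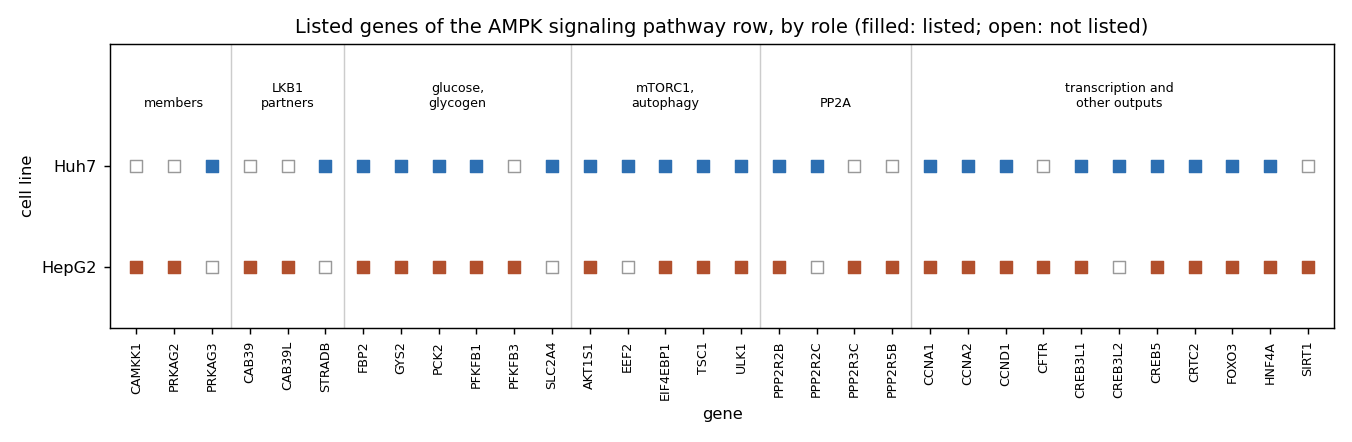
The 32 genes of the AMPK signaling pathway row that were listed in at least 1 cell line and belong to the members, the LKB1 partners, the glucose, mTORC1 and PP2A lists or the transcription and other outputs, ordered by role, with filled squares where the gene was listed. The members PRKAG2 and CAMKK1 are filled in HepG2 only and PRKAG3 in Huh7 only. The LKB1 partners and most PP2A genes are also filled in 1 cell line, and most glucose, mTORC1 and transcription genes in both. The lipid and the hormone and insulin genes of the row are not drawn.

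The genes around AMPK were grouped in 10 lists by role, 141 genes in all. Of these, 48 were listed in HepG2 (34.0%), 35 in Huh7 (24.8%) and 25 in both (17.7%), above the background shares of 21.6%, 19.7% and 10.3%. Beside the share over gene and pathway entries, 26.3% in HepG2 and 25.8% in Huh7, the HepG2 share was again the higher but the Huh7 share was lower. The lists were drawn largely from the genes known for the AMPK pathway, so they overlap with the AMPK row and are no separate evidence beside it. They were also chosen with earlier results of these data known, so a share above the background is no result about them.

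The LKB1 partners surround STK11. Of 4 genes, CAB39 and CAB39L, encoding the MO25 scaffold proteins, were listed in HepG2, and STRADB, encoding a pseudokinase that activates LKB1, in Huh7. The calcium and calmodulin list surrounds the CAMKK genes. Of its 8 genes, CALM3, CAMK4 and CAMK1D were listed in HepG2 and PNCK in Huh7. CAMK4, CAMK1D and PNCK encode CaM kinases, of the family that CAMKK1 phosphorylates. No gene of these 12 was listed in both cell lines, where 10.3% of the background was, which is near the background for so few genes.

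Other regulators of AMPK had the highest share of any list in HepG2, with 6 of 9 (66.7%) against 3 of 9 in Huh7 (33.3%). The background shares were 21.6% and 19.7%. With only 9 genes, and as the highest in HepG2 of 10 lists, its difference from the background was not tested. FLCN, SESN2 and PPM1E were listed in both, and SESN1, SESN3 and FNIP1 in HepG2. FLCN and FNIP1 encode folliculin and its partner, which bind AMPK, PPM1E encodes a phosphatase that removes the activating phosphate of alpha, and the sestrins are stress proteins. AMPK-related kinases, which LKB1 also activates, were closer to the background, with 2 of 12 in HepG2 (BRSK1 and MARK3) and 3 of 12 in Huh7 (BRSK1, MARK4 and NUAK2).

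Downstream of AMPK, 1 of the 12 lipid targets was listed in each cell line (8.33%), under the background shares of 21.6% and 19.7% but near them for so few genes. The gene listed in HepG2 was LIPE, which encodes hormone-sensitive lipase. Glucose and glycogen targets were listed for 5 of 21 in each cell line, of which PCK2, FBP2, GYS2 and PFKFB1 were in both, PFKFB3 in HepG2 and SLC2A4 in Huh7. GYS2 is the glycogen synthase of liver and SLC2A4 the insulin-responsive glucose transporter. The mTORC1, translation and autophagy targets were listed for 4 of 12 in HepG2 and 5 of 12 in Huh7. EIF4EBP1, TSC1, ULK1 and AKT1S1 were in both and EEF2 in Huh7 only. TSC1 restrains mTORC1 and ULK1 starts autophagy.

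Hormone and insulin inputs were listed for 11 of 27 genes in HepG2 (40.7%) and 4 of 27 in Huh7 (14.8%). The background shares beside this list and those that follow were 21.6% and 19.7%, and no difference from them was tested. The PI3K catalytic genes PIK3CD and PIK3CG were in both lists, and PIK3R1, PIK3R2 and IGF1 were in that of HepG2 cells only. Subunits of PP2A, a phosphatase that acts on AMPK, were listed for 3 of 16 in HepG2 (PPP2R2B, PPP2R5B and PPP2R3C) and 2 of 16 in Huh7 (PPP2R2B and PPP2R2C). Transcription factors and other outputs were listed for 11 of 20 in HepG2 and 10 of 20 in Huh7, with 9 in both. CCND1, CREB3L1, CREB5, CCNA1 and FOXO3 were among the 9, and CREB3L2 was listed in Huh7 only.

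**Figure D5:**
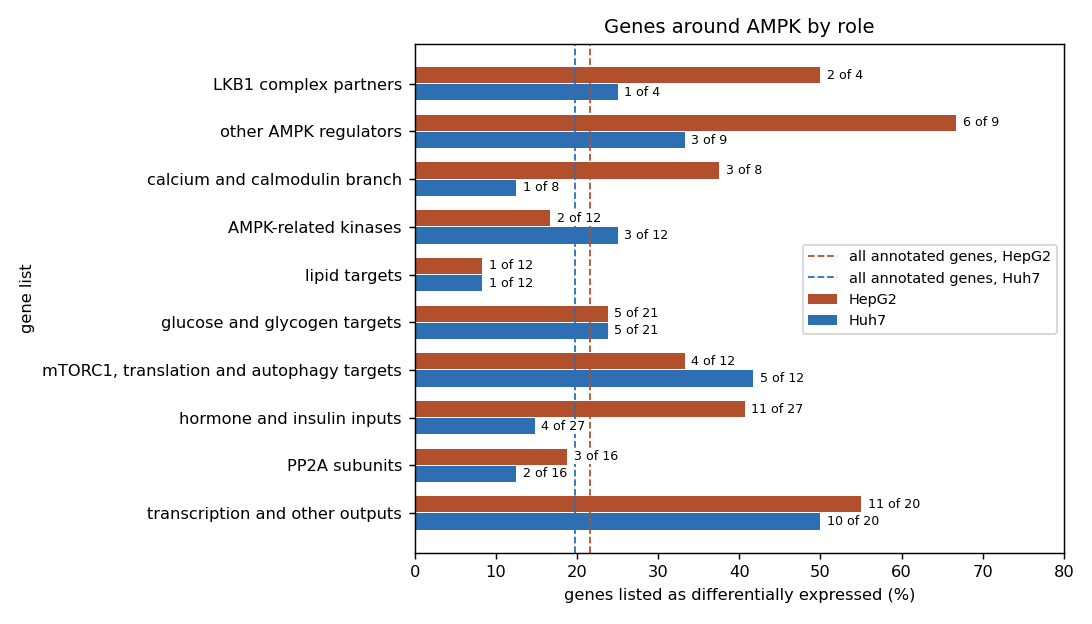
Share of the genes of each role list that was listed in HepG2 and in Huh7 (bars, %, with the number of genes), beside the share of all 22148 background genes (dashed lines). Other AMPK regulators in HepG2 reached 66.7%, transcription and other outputs reached 11 and 10 of 20 genes, and lipid targets were at 8.33% in both.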

How the data were processed

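Ribosomal RNA-depleted total RNA was sequenced from 4 groups, with 1 library each, as the sample labels give them. For differential expression of mRNAs the authors set a threshold of 0.05 on the adjusted p-value. Their methods name Cuffdiff, whereas their results name edgeR as the program the authors used. The submitters' processing notes list Bowtie2 2.2.8, HISAT2, StringTie 1.3.1 and Cuffdiff 2.1.1. The methods give Cuffdiff for FPKM values and differential expression. The roles of the other programs, the build and the annotation are not given in the sources used here. The authors deposited 4 tables of GO terms and KEGG pathways with numbers of listed and background genes and identifiers of the listed genes. The p-value columns hold enrichment tests by GOseq and KOBAS and were not used. Results for lncRNAs and circRNAs were not analysed here, and 2 genes of the role lists are counted but not reported by name here.

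Each list was rebuilt from the identifiers of all GO rows and lacks differentially expressed mRNAs without one, among them 17 HepG2 and 12 Huh7 genes of the KEGG rows. For each cell line the paper reports more differentially expressed mRNA genes than the rebuilt list holds. The number in each row equalled its identifiers (0 rows differed). A gene name table gave symbols for 4755 of 4783 HepG2 and 4346 of 4369 Huh7 genes. Counts were set beside the background without a test. The members and role lists were chosen with earlier results of these data known. Named were all members, at most 6 listed genes per role list (those in most KEGG rows first) and the 3 genes with GO rows most like those of each listed member. Alternatives were KEGG rows, single GO branches and other backgrounds. The list operations were tested on simulated data. Python 3.11.15, SciPy 1.17.1 and matplotlib 3.10.9 were used.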

Additional observations from a re-analysis of the deposited data

How the results depend on the processing

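A count was called kept within 1.5 times its main value, and a percent within its 95% Wilson interval, which is narrow for the whole background. By these limits 26 of 30 alternative settings were kept, the 24 of the counts of members and role list genes and the 2 of the AMPK row (32.5% and 22.8%, against 31.5% and 21.8%). Members listed were 2 in HepG2, 1 in Huh7 and 0 in both from KEGG rows, from GO and KEGG rows together, and from biological process or molecular function rows alone. Role list genes listed were 44, 30 and 23 from KEGG rows, against 48, 35 and 25 from GO rows, since KEGG rows hold no gene without a pathway. The 4 values past the limit were the background shares. With protein-coding genes as background they were 23.9% in HepG2 and 21.9% in Huh7, and with gene and pathway entries 26.3% and 25.8%, so the background beside the members depends on which genes are counted in it. The planned identity of the member proteins was not run, because no protein table was used here.

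Each group has 1 library, no expression value or direction is in the tables, and the background was not limited to expressed genes. The listing of PRKAG2, PRKAG3 and CAMKK1 therefore rests on single pairs of libraries, and their absence from the other list is no sign of a difference.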

Other observations

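Cellular response to glucose starvation, a GO term chosen after its values had been seen, has 43 background genes. It held 16 listed genes in HepG2 (37.2%) and 12 in Huh7 (27.9%), with 9 in both. Over all background genes the shares were 21.6%, 19.7% and 10.3% in both, and the difference was not tested. The 9 were ASNS, ATF4, HSPA5, IFI16, MTMR3, NIM1K, PMAIP1, SESN2 and UPP1. ATF4 is a transcription factor of the integrated stress response, ASNS encodes asparagine synthetase and HSPA5 a chaperone of the endoplasmic reticulum. SESN1, SESN3, XBP1 and EIF2AK3 were among the genes listed in HepG2 only, and NUAK2, an AMPK-related kinase, was among those in Huh7 only. No member was among the listed genes of this term.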
